A study of Mus musculus and Rattus norvegicus with 37 samples.

Results

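The genes described here encode the nuclear-encoded subunits of oxidative phosphorylation, measured by RNA-seq in mouse and rat liver. They were chosen by symbol, from the families Nduf, Sdh, Uqcr, Cox4 to Cox8 and Atp5. The rule does not use how they responded, but earlier results of these data were known when it was set. Of 48059 named entries in each mouse table, 104 matched, and 93 of these reached a mean normalised count of 10 and were tested in both mouse tables. Of 32549 named entries in each rat table, 97 matched, and 76 were tested in the comparison of obese and lean rats and 77 in the drug comparison. The symbols also bring in assembly factors of complex I (the Ndufaf genes) and a supercomplex factor, Cox7a2l, which are reported apart from the structural subunits. In mice 5 tested entries, Cox6c2, Ndufb4c, Ndufs6b, Uqcrh-ps1 and Atp5k-ps2, are annotated as processed pseudogenes. They match the symbols and are counted with their complexes, except in the medians and ranks per kilobase.

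The livers came from 21 mice and 16 rats. Female C57BL/6J mice on chow were killed 7 days after a subcutaneous dose of saline or of LNA29, a pair of locked nucleic acid oligonucleotides against miR-29a and miR-29b/c at 20 mg/kg each. The first mouse table, WT/Floxed, pools 2 lines: wild-type (WT) mice aged 9 to 11 weeks, with 3 on saline and 4 on LNA29, and mice with a floxed but intact Sirt1 gene aged 15 to 20 weeks, with 2 on saline and 4 on LNA29. The second holds littermates of the floxed mice labelled L-Sirt1 KO, a deletion in the liver only, with 4 mice on saline and 4 on LNA29. The rats were male Zucker animals. Zucker fatty rats (ZFR), which carry the fa/fa leptin receptor mutation and become obese, were compared with Zucker lean rats (ZLR) at 5.5 months, 4 against 4. A separate set of ZFR aged 3 months received BT2, an inhibitor of the kinase that restrains branched-chain ketoacid dehydrogenase, at 20 mg/kg daily for a week, or vehicle, again 4 against 4. The lines in the WT/Floxed table also differ in age, so line and age cannot be told apart.

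Oxidative phosphorylation takes electrons from NADH and succinate and passes them along the inner mitochondrial membrane to oxygen. Complex I (NADH dehydrogenase), complex III and complex IV (cytochrome c oxidase) pump protons as electrons pass, complex II (succinate dehydrogenase) links the chain to the citric acid cycle, and complex V (ATP synthase) uses the proton gradient to make ATP. Most subunits are encoded in the nucleus and imported, while a small core set is transcribed from the mitochondrial genome itself. Liver relies on this system for gluconeogenesis, the urea cycle and the oxidation of fatty acids. NRF1, the ETS factor GABPA and YY1, together with the coactivators PGC-1α and PGC-1β, are known to act on promoters of the nuclear genes.

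Both LNAs target mature strands that share a seed, bases 2 to 8, by which a microRNA recognises its messages. The mature strands are printed first because they set which subunit messages could be direct targets, with the seed in capitals (RefSeq, GRCm38.p6).
mmu-miR-29a-3p: uAGCACCAucugaaaucgguua
mmu-miR-29b-3p: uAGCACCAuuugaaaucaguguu
mmu-miR-29c-3p: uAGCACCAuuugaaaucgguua
The genes of miR-29a-3p and miR-29c-3p lie at chr6:31062673-31062694 on the minus strand and chr1:195037600-195037621 on the plus strand, and miR-29b-3p comes from both clusters.

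The match to this seed, TGGTGCT, was rare in the 3′ UTRs of the subunits. Of the 88 members with an annotated 3′ UTR, 2 held it, which is 2.27%, against 1896 of 13406 tested genes, or 14.1%. The subunits also have short 3′ UTRs, with a median of 176.5 bases against 993 bases over all tested genes, so a match had less sequence in which to occur. The 2 genes were Atp5g1, which encodes a copy of the membrane-ring subunit c of ATP synthase, and Sdhc, a membrane anchor of complex II. Their 3 matches are shown with the flanking bases of the GENCODE transcript (GRCm38), the match in capitals.
Atp5g1, chr11:96073045-96073051, minus strand: catgccagtccTGGTGCTggagtctactg
Atp5g1, chr11:96072827-96072833, minus strand: ggtaatgatgtTGGTGCTttgtcactttc
Sdhc, chr1:171128683-171128689, minus strand: tgctttgtttgTGGTGCTaggggtcaaag
Neither message passed the test on LNA29. For Atp5g1 the log2 fold change was -0.14 in the WT/Floxed table and -0.07 in the table labelled L-Sirt1 KO, with adjusted p of 0.605 and 0.867. That of Sdhc was -0.07 and -0.06, with adjusted p of 0.706 and 0.845 (limma). The transcript used for Atp5g1 has a long 3′ UTR of 4252 bases, and which 3′ end the liver uses was not tested.

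The promoters of the members were searched for words of the known regulators, and 26 of 72, or 36.1%, held a word of NRF1, the ETS factor or YY1, against 17.4% of the tested genes. RefSeq promoter windows of 300 bases, 250 before and 50 after the start, were found for those 72 of the 93 mouse members and for 27025 genes in all, and exact words were counted on both strands. The NRF1 word GCATGCGC was in 12 of the 72 windows, or 16.7%, against 3.05% of all windows and 5.51% of those of the genes tested. The YY1 word AAGATGGC was in 10, or 13.9%, against 3.19% and 4.86%. The ETS word CCGGAAGT was in 5, or 6.94%, against 4.31% and 8.41%, and the SP1 word GGGGCGGG was in 19, or 26.4%, against 18.4% and 33.2%. The ETS and SP1 shares were thus below those of the tested genes. Of the 10 members with the YY1 word, 7 belonged to complex I, which supplied 32 of the 72 windows. An exact word is a description of the letters and not a bound site. An example of each of the 3 regulators' words is shown (GRCm38.p6) with the word in capitals. In Ndufa11, an accessory subunit of complex I and 1 of the 3 members that differed between the mouse lines, the NRF1 word runs into its own reverse complement.
Ndufa11, chr17:56717512-56717811, plus strand: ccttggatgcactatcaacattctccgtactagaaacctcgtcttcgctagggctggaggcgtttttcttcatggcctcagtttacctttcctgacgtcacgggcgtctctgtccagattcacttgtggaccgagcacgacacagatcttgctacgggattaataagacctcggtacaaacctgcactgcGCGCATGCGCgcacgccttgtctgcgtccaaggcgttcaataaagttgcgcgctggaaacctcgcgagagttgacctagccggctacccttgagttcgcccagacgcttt
Cox8a, chr19:7217567-7217866, minus strand: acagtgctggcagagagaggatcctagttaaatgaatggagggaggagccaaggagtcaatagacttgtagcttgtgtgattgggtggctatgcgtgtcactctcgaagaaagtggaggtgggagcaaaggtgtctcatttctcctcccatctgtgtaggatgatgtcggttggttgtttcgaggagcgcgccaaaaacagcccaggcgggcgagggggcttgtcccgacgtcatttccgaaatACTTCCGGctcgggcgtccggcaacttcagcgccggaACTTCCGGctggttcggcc
Ndufs4, chr13:114388045-114388344, minus strand: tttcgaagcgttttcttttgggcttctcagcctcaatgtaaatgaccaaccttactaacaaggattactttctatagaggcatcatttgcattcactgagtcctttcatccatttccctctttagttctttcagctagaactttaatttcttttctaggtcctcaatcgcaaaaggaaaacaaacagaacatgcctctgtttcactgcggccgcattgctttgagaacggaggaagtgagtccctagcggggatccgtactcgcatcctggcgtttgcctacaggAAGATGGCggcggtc
Cox8a, a small subunit of complex IV, holds the ETS word in reverse orientation at 2 places near its start. In Ndufs4, an accessory subunit of complex I, the YY1 word lies at the downstream end of the window.

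The libraries differed widely in depth between species. The mouse libraries held an estimated 42600000 to 77900000 reads, and the rat libraries 188000 to 58500000 reads in the obese and lean set and 193000 to 8960000 reads in the drug set. In the lean rats 3 and 4, with 188000 and 189000 reads, 1 read is worth about 10.5 and 10.4 normalised counts. Albumin, the defining hepatocyte message, ranged from 3290000 to 6180000 normalised counts in WT/Floxed mice and from 3640000 to 5680000 in those labelled L-Sirt1 KO. In rats it ranged from 146000 to 245000 in the ZFR and ZLR set and from 175000 to 220000 in the drug set. The tables are scaled separately, so mouse and rat values cannot be compared. The Sirt1 message did not separate the mice labelled L-Sirt1 KO, at 534.6 to 616.5 normalised counts against 492.7 to 699.1 in WT/Floxed mice, on tables that were normalised separately. A deletion can leave part of a message in place, so the level is given as measured and the group is named by its label. The paper also measured hepatic Sirt1 in both groups by RT-qPCR, a separate assay that was not re-examined here. Of the striated muscle genes, Acta1 and Ckm were near 0 in most livers but not in all. Mylpf, another muscle gene, was not near 0 in any mouse liver. It ranged from 22.2 to 74.7 normalised counts in WT/Floxed mice and from 19.5 to 213 in those labelled L-Sirt1 KO. Acta1 and Ckm reached 988 and 561 in an LNA29 library labelled L-Sirt1 KO, 166 and 53.5 in WT/Floxed mice, 196 and 91.8 in the ZFR and ZLR set and 197 and 125 in the drug set.

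In mouse liver the subunits stood at high and unequal levels. Normalised counts were divided by the median length of each gene's protein-coding transcripts (GENCODE vM21) so that genes could be compared per kilobase. Complex IV had the highest median of the nuclear-encoded complexes, 15000 normalised counts per kb over 14 subunits in WT/Floxed mice. Complex III followed at 12900 over 8 subunits and complex V at 12560 over 16, then complex II at 9358 over 4 and complex I at 5372 over 36. The 8 assembly factors of complex I had a median of 553.5 per kb. The lowest of those 36 structural subunits, Ndufb4, was at 830.4, below the assembly factors Ndufaf8, Ndufaf1 and Ndufaf2 at 1344, 1029 and 1009. Ndufb4c, a processed pseudogene left out of this ranking, held 2977 normalised counts against 806.3 for Ndufb4. How reads are shared between these 2 entries was not tested, so the level of Ndufb4 may be understated.

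The highest per-kb level was that of Atp5b, the catalytic β subunit of ATP synthase, at 35830 per kb and between 31950 and 42390 in the 13 libraries. Ndufa4, now counted as a subunit of complex IV, was at 33420 (25850 to 40850), Cox4i1, the liver-type subunit 4 of complex IV, at 30830 (24090 to 41130), Atp5g3, another copy of subunit c, at 30270 (25460 to 35940), and Uqcrq, a small subunit of complex III, at 29920 (23000 to 37480). The ranges of these 5 genes overlap, so their order is not separated by these libraries. Within complex I, Ndufa6 (20280 per kb, 15070 to 24920) and Ndufb9 (16390, 13850 to 19970) were the highest, and their ranges overlap too. The core complex I subunits Ndufs1 and Ndufv1 were lower, at 2660 (2269 to 3097) and 6475 (5335 to 7628) per kb. In complex II, Sdhd, Sdha and Sdhb lay together at 9568, 9560 and 9157 per kb, and Sdhc at 5812 (5324 to 6433) was below the range of each of the other 3.

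Among the 3 subunit c genes, which encode the same mature protein, Atp5g3 was at 30270 per kb, Atp5g2 at 4109 (3643 to 4852) and Atp5g1 at 3257 (2829 to 4369). The per-kb levels of Atp5g2 and Atp5g1 overlap, but their order depends on the length used. Before division Atp5g1 averaged 8714 normalised counts and Atp5g2 2408, and the lengths were 2675.5 and 586 bases. Which 3′ end of Atp5g1 the liver uses was not tested. Paralogs known from other tissues were low. Cox7a1, the heart and muscle form of subunit 7a, was at 193.9 per kb against 9410 for the liver form Cox7a2, and Cox6b2, the testis form of subunit 6b, at 42.88 against 19260 for Cox6b1. Ndufa4l2, a hypoxia-inducible relative of Ndufa4, was at 90.83 per kb. Cox4i2, Cox6a2, Cox7b2, Cox8b and Cox8c were below the minimum in both mouse tables. In the table labelled L-Sirt1 KO, Cox6a2 and Cox8b, both muscle forms, averaged 6.091 and 5.468 normalised counts against 2.588 and 1.514 in WT/Floxed mice, and both tables hold a library with muscle RNA.

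The 13 subunits encoded by the mitochondrial genome were far higher. mt-Co2 and mt-Co1, core subunits of complex IV, stood at 491500 and 483800 normalised counts per kb, and the lowest, mt-Nd4l of complex I, at 36470, which is above every nuclear-encoded member. These libraries were made from polyadenylated RNA, and how completely each mitochondrial message was captured was not tested.

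**Figure D1:**
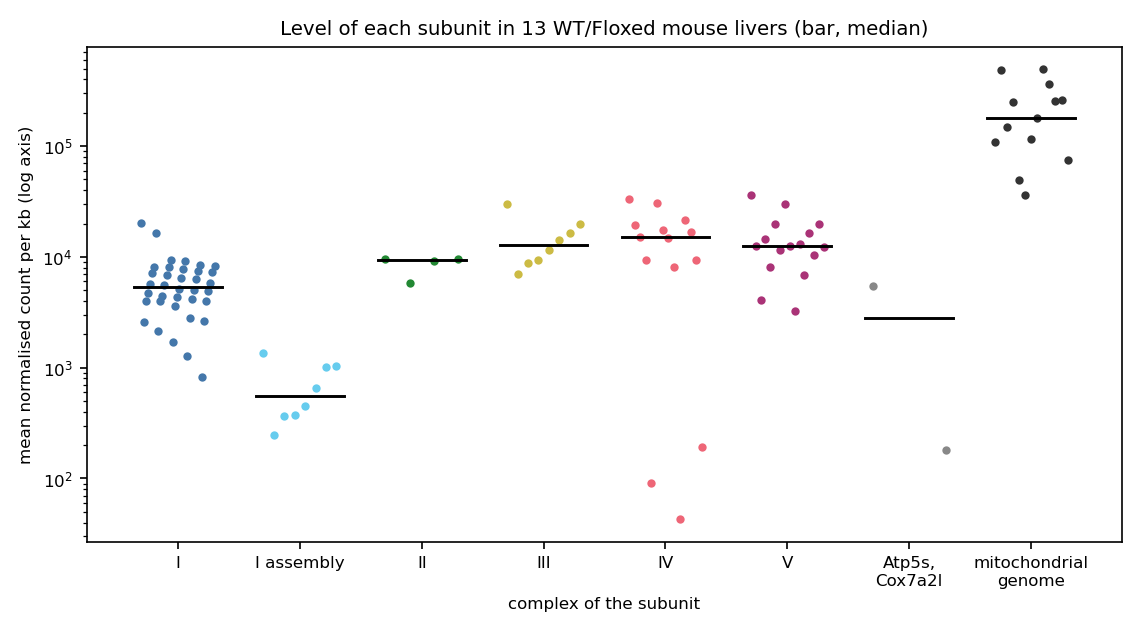
Mean normalised count per kb of each tested subunit in the 13 WT/Floxed livers, on a log axis, by complex. Processed pseudogenes are left out, and bars are medians. Complex IV, III and V lie between 12560 and 15000 at their medians, complex I at 5372, the assembly factors at 553.5, and the mitochondrially encoded subunits above all of them.

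The first question the design puts to these genes is whether suppression of miR-29 alters their messages in mice with intact Sirt1. In the 13 WT/Floxed livers no member was called at an adjusted p under 0.05 in the limma fit over 15811 genes, where 1.37% of all genes were called. The members had a median log2 fold change of -0.05 over 93 genes against 0.00 over all tested genes, and 69 of the 93 were lower. That median rested on single livers, at 0.00 without saline replicate 2, 0.02 without saline replicate 5 and -0.13 without saline replicate 3. The largest shifts were small, from -0.27 to 0.31. For 86 of the 93 the 95% interval lay within 0.5 log2 units of no difference, and the median standard error was 0.114, so the libraries set narrow bounds on most members. At an adjusted p under 0.2 there was 1 member, against 5.56% of all genes, and at an unadjusted p under 0.05 there were 6 lower and 0 higher, against 6.5% and 6.82% of all genes.

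Complex II held 2 of those 6. Sdha, which carries the flavin and the succinate site, was at 34860, 29050, 29980, 30490 and 26350 normalised counts in the 5 saline livers and between 22020 and 28570, with a median of 26450, in the 8 LNA29 livers. Only 1 saline liver lay inside the LNA29 range. The log2 fold change was -0.20 (95% interval -0.38 to -0.03, adjusted p = 0.294 by limma). Sdhb, the iron-sulfur subunit, was at 11730, 12250, 9904, 10890 and 12140 on saline and from 9028 to 12160, median 9284, on LNA29, where 5 of the 8 values lay below every saline value and 3 within the saline range. Its log2 fold change was -0.21 (-0.39 to -0.03, adjusted p = 0.296 by limma). The membrane anchors Sdhc and Sdhd were also lower, by -0.07 and -0.10 log2, and the median of the 4 genes was -0.15.

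The member with the lowest p was Ndufaf7, a methyltransferase that modifies a complex I subunit during assembly. It stood at 909.3, 931.2, 843.3, 935.6 and 938.1 on saline and from 691.9 to 894.2, median 759.5, on LNA29. A lone LNA29 liver reached into the saline range. The log2 fold change was -0.25 (-0.41 to -0.08, adjusted p = 0.154 by limma). Ndufaf5, another assembly factor that acts on a complex I subunit, went from a mean of 323.5 ± 44.5 (SD, n = 5) to 268.3 ± 32.4 (n = 8), with a log2 fold change of -0.27 and an adjusted p of 0.312 by limma. Over the 8 assembly factors the median was -0.13, with 5 lower.

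In the structural part of complex I, 26 of 38 members were lower and the median was -0.03. Ndufa10, an accessory subunit, was at 8059, 8356, 6682, 8005 and 8176 on saline and from 6375 to 7406, median 6900, on LNA29. Saline replicate 3 was far below the other 4, which all exceeded every LNA29 value. The log2 fold change was -0.19 (-0.32 to -0.05, adjusted p = 0.204 by limma). Of the core subunits, Ndufs1, which holds iron-sulfur clusters of the electron path, had a log2 fold change of -0.15 (-0.31 to 0.00) and Ndufv1, which binds NADH, of 0.00 (-0.20 to 0.19). On the higher side, Ndufs4 came first by p, at 0.10 (-0.14 to 0.33).

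Complexes III, IV and V gave the same picture of small values. In complex III the median was -0.04, and Uqcrc1, a core subunit, went from 15520 ± 1217 (SD, n = 5) to 14050 ± 921.6 (n = 8), -0.14 log2 with an adjusted p of 0.371 by limma, while the Rieske iron-sulfur protein Uqcrfs1 was at -0.03. In complex IV the median was -0.04 over 15 members, with Cox4i1 at 0.00 and Cox5a, which pairs with subunit 4, at -0.04. Cox6b2 had the largest positive value of any member, 0.31, at a mean of only 14.87 and 21.01 normalised counts and with an interval from -0.54 to 1.16. In complex V, 16 of 17 members were lower, with a median of -0.06. Atp5b was at 72150 ± 7219 (SD, n = 5) and 66460 ± 3142 (n = 8), a log2 fold change of -0.11 (-0.27 to 0.04).

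The mitochondrially encoded subunits, which the rule did not choose, were lower by more. All 13 were lower on LNA29, with a median log2 fold change of -0.27, 0 were called at an adjusted p under 0.05 by limma and 5 at an adjusted p under 0.2, and 7 reached an unadjusted p under 0.05. Taken by line, the median was -0.16 in WT mice, with 11 of 13 lower, and -0.40 in floxed mice, with 13 of 13 lower, and none was called in the test of that difference. mt-Co1 averaged 830900 normalised counts on saline and 695400 on LNA29 (log2 fold change -0.26, adjusted p = 0.146 by limma), and its groups did not overlap. mt-Nd4l, a membrane subunit of complex I, had -0.38 with an adjusted p of 0.144. The mitochondrial ribosomal proteins, which translate these messages, had a median of -0.01 over 82 genes.

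Of the 13 tested citric acid cycle genes, 11 were lower and 1 was called. That was Cs, citrate synthase, which fell from 8431 to 6843 normalised counts (log2 fold change -0.30, adjusted p = 0.027 by limma). None of 13 regulators was called by limma, with 1 at an unadjusted p under 0.05. The regulator was Esrra, a nuclear receptor that acts with PGC-1α on these promoters, at -0.19 with an adjusted p of 0.296. Ppargc1a, which encodes PGC-1α, averaged 535.7 and 412.9 (-0.33, adjusted p = 0.578), Nrf1 531.5 and 599.7 (0.17, adjusted p = 0.522) and Tfam, the mitochondrial transcription factor, 2789 and 2969 (0.09, adjusted p = 0.650). Cyc1 and Cycs, cytochrome c1 and cytochrome c, were at -0.10 and 0.02.

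**Figure D2:**
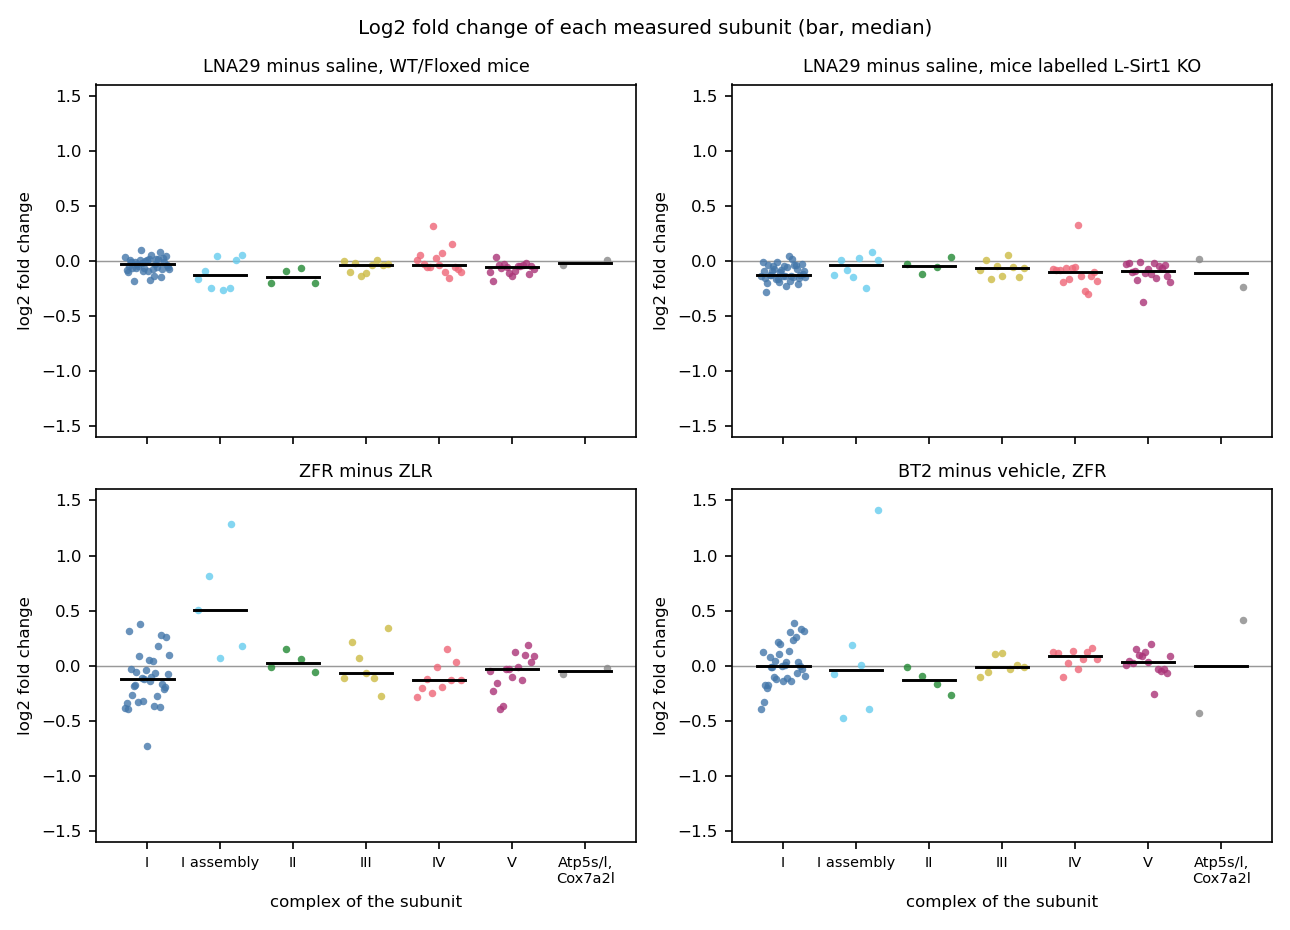
Log2 fold change of every tested member by complex in the 4 comparisons, with bars at the medians and equal vertical axes. The mouse members lie between -0.38 and 0.32 and close to 0, and the lowest of them is Atp5k-ps2, a processed pseudogene. The rat members spread from -0.73 to 1.41. The last column holds members kept apart from the complexes (Cox7a2l with Atp5s in mice and Atp5sl in rats).

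What separated the mouse livers more than treatment was a level that the members shared within a library. The mean log2 normalised count over the 93 members was 11.93, 11.66 and 11.79 in the 3 WT saline livers and 12.11 and 12.18 in the 2 floxed saline livers. On LNA29 it was 11.98, 11.98, 11.69 and 11.74 in WT and 12.14, 11.80, 11.88 and 11.84 in floxed livers. In saline replicate 3, a WT mouse, 5 of the 93 members were above their median over the table, and in the 2 floxed saline livers 87 and 90 were. The median SD of a member within a group was 0.214 log2 units and fell to 0.0931 once each library's mean over the members had been subtracted. Cytosolic ribosomal proteins, which are short and abundant messages like most members, moved alongside, from a mean of 12.25 in the same WT saline liver to 12.87 in a floxed saline liver. The level also differed between 2 of the 3 flow cells named in the labels, while the last overlapped both. In WT/Floxed mice the 5 libraries of one flow cell had means of 11.93 to 12.14 and the 4 of another 11.66 to 11.88. The 4 of the last had means of 11.74 to 12.18. With flow cell as a term the median LNA29 fold change over the members was -0.02, and 0 members were called. The part of flow cell and age in this shared level was not tested.

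**Figure D3:**
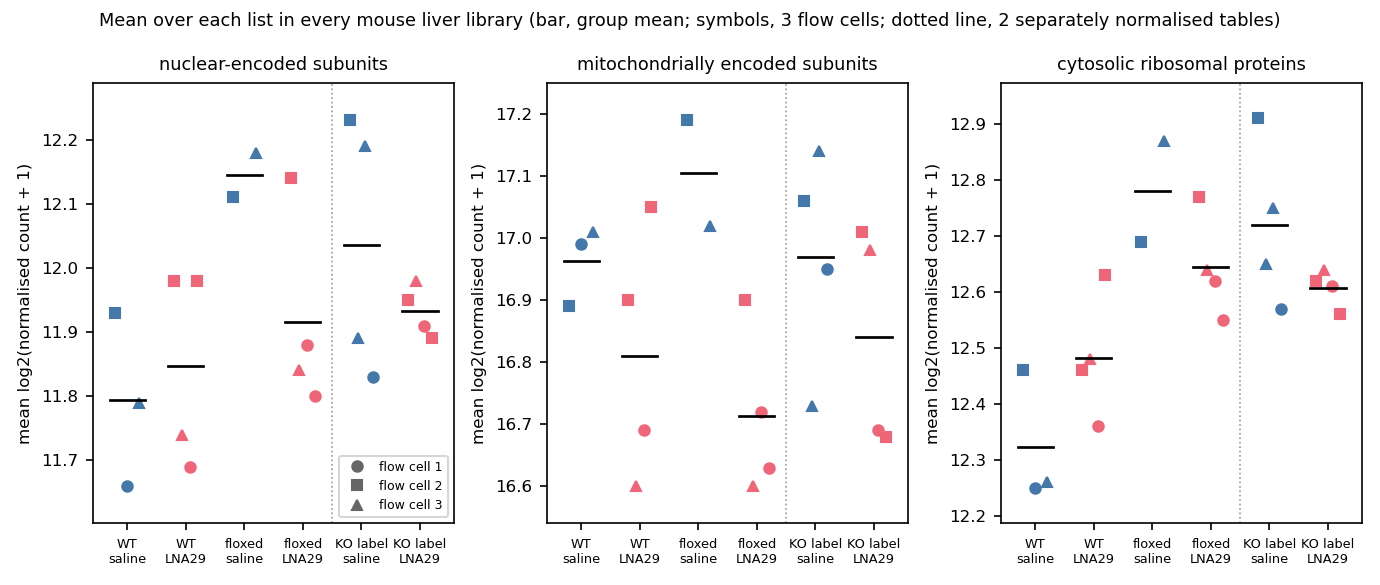
Mean log2(normalised count + 1) over the nuclear-encoded subunits, the 13 mitochondrially encoded subunits and the cytosolic ribosomal proteins in each mouse library, by line and treatment, with bars at group means, symbols for the 3 flow cells, saline in blue and LNA29 in red. The 2 floxed saline livers lie above all WT livers for the nuclear-encoded subunits, and the dotted line parts tables that were normalised separately.

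Because the lines were pooled, the members were also compared between them in a fit with treatment as a term, an analysis chosen after the data were seen. In this comparison 84 of the 93 members were higher in floxed than in WT livers, with a median log2 difference of 0.21, and 44 were higher at an unadjusted p under 0.05, against 12.8% of all genes. Lower at that level were 4, against 12.6%. The gap lay mostly in the saline livers, where the mean over the members was 12.14 in 2 floxed and 11.79 in 3 WT livers. On LNA29 it was 11.92 in 4 floxed and 11.85 in 4 WT livers. The members share a level within a library, so these counts are not separate results. At an adjusted p under 0.05 there were 3 members, against 5.66% of all genes. Cox7a1 was at 80.12, 49.41, 42.67, 66.9, 50.16, 67.93 and 67.93 normalised counts in the 7 WT livers and at 139.3, 99.4, 114.8, 126.7, 103.4 and 97.94 in the 6 floxed livers, with no overlap. The log2 difference was 0.90 (0.55 to 1.26, adjusted p = 0.013 by limma). Ndufa11 rose from 1997 to 2417 (0.28, 0.11 to 0.44, adjusted p = 0.048), and Ndufaf1, an assembly factor that helps to build the membrane arm of complex I, fell from 1654 to 1305 (-0.33, -0.50 to -0.17, adjusted p = 0.030).

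The line difference was not shared by all complexes. All 17 members of complex V, 37 of 38 of complex I and 14 of 15 of complex IV were higher in floxed livers, with medians of 0.23, 0.22 and 0.21. Complex II had a median of 0.02, and Sdha was lower in floxed livers, at 25680 against 29480 (-0.18, adjusted p = 0.100 by limma). Uqcrc2, a core subunit of complex III, was at 12560 against 13870 (-0.13, adjusted p = 0.194). The 13 mitochondrially encoded subunits had a median of -0.06, with 1 called lower. The cytosolic ribosomal proteins had a median of 0.30 with 41 of 98 called. Cox7a1 was higher still in the mice labelled L-Sirt1 KO, at 138.2 to 233.8, on the separately normalised table, and those mice share the age range of the floxed line. In the 4 saline mice it was at 233.8, 180.5, 209.3 and 167.3. Ckm, a muscle gene, averaged 0.161 in the 5 WT/Floxed saline livers, in which Cox7a1 ranged from 42.67 to 139.3. The part of muscle RNA, age or line in the level of Cox7a1 was not tested.

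The response to LNA29 was then taken within each line, also after the data were seen. In WT mice, 4 against 3, the median over the members was 0.06 and 25 of 93 were lower. None was called by limma at an adjusted p under 0.05, where 0.0694% of all genes were, and 1 was lower at an unadjusted p under 0.05, against 4.51%. In floxed mice, 4 against 2, the median was -0.22 and 92 of 93 were lower, the exception being Cox6b2. None was called there either, with 0.165% of all genes called, and 21 were lower at an unadjusted p under 0.05, against 6.97%. The lowest p values there belonged to small subunits of complex IV. Cox7b had -0.75 (adjusted p = 0.114), Cox5b -0.36 (adjusted p = 0.143) and Cox7c -0.43 (adjusted p = 0.148).

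The difference between these responses had a median of -0.25, with 90 of 93 members below 0 and all of complexes I, IV and V below 0. No member was called in the test of the difference, in which 0% of all genes were, and 17 had an unadjusted p under 0.05 in the lower direction, against 3.75% of all genes. Cox7c was at 12260 and 11530 in the 2 floxed saline livers and at 10140, 8449, 8096 and 8637 on LNA29, and in WT livers at 9281, 6744 and 7094 on saline and at 9145, 10930, 8092 and 8069 on LNA29. The difference of its responses was -0.67 (SE 0.198, adjusted p = 0.525 by limma). The cytosolic ribosomal proteins moved the same way, with 32 of 98 at an unadjusted p under 0.05 and a median difference of -0.33. Flow cell was not a term in these fits and did not fall evenly. The 2 floxed LNA29 livers with means over the members of 11.80 and 11.88 came from a flow cell with no floxed saline liver. On the flow cells that held both, the mean was 12.11 on saline and 12.14 on LNA29 in one pair and 12.18 and 11.84 in the other. All these values rest on the 2 floxed saline livers, whose means over the members, 12.11 and 12.18, are among the 3 highest in the table.

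**Figure D4:**
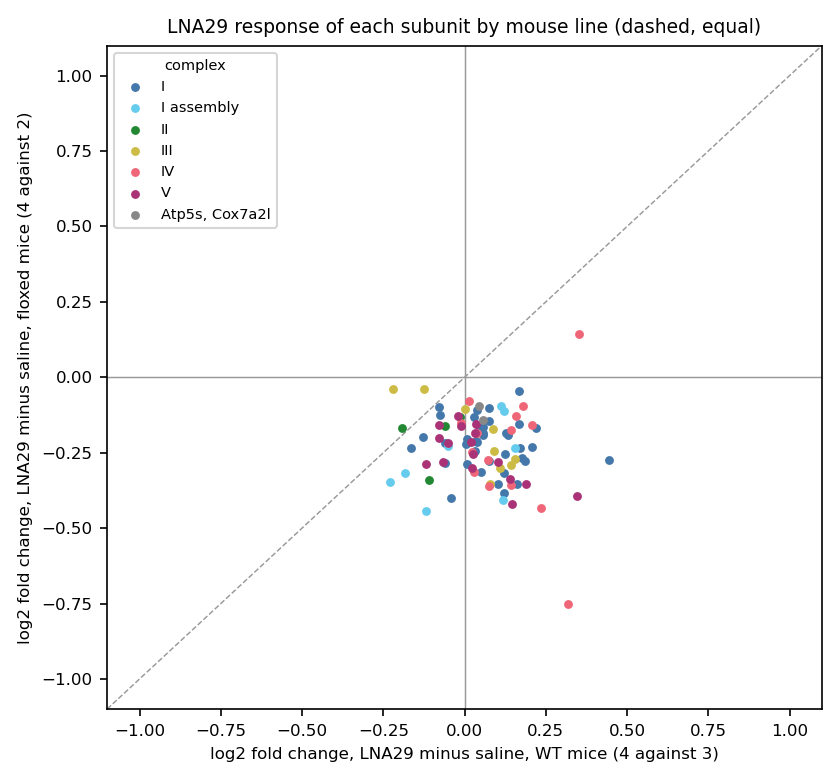
Log2 fold change on LNA29 of each of the 93 members in WT mice (horizontal, 4 against 3 livers) and in floxed mice (vertical, 4 against 2), coloured by complex, with the dashed line at equal values. Nearly all points lie below 0 on the vertical axis and to both sides of 0 on the horizontal axis, with medians of -0.22 and 0.06.

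In the mice labelled L-Sirt1 KO, the comparison asks whether LNA29 acts on these genes when hepatic Sirt1 is targeted. No member was called by limma among 93, with 0.246% of 15885 genes called, and none at an adjusted p under 0.2, where 2.06% of all genes lay. Lower at an unadjusted p under 0.05 were 2 members, against 4.9%, and higher 0, against 6.3%. The median was -0.10 against 0.00 over all genes, 82 of 93 were lower, and 79 of the 95% intervals lay within 0.5 log2 units of 0. All 17 members of complex V were lower, with a median of -0.10, and 36 of 38 of complex I, with -0.13. The cytosolic ribosomal proteins had a median of -0.13. The shared level was again carried by a few libraries. The saline means were 12.23, 11.83, 12.19 and 11.89 and the LNA29 means 11.95, 11.89, 11.91 and 11.98, so 2 saline livers stood high and the other 2 lay at or below the LNA29 livers.

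The 2 members with the lowest p did not overlap between treatments. Cox7a2l, the supercomplex factor, was at 7485, 6482, 7270 and 6595 on saline and at 6049, 5609, 6005 and 5850 on LNA29 (log2 fold change -0.24, -0.41 to -0.07, adjusted p = 0.282 by limma). Ndufa3, a small accessory subunit of complex I, was at 4698, 3621, 4256 and 3817 on saline and at 3198, 3210, 3381 and 3577 on LNA29 (-0.29, -0.51 to -0.07, adjusted p = 0.303 by limma). For Ndufa3 the lowest saline and the highest LNA29 value are close, and for Cox7a2l the gap is wider. In WT/Floxed mice both were level, at 0.00 for Cox7a2l and 0.01 for Ndufa3. Ndufv3, a further accessory subunit, was at -0.21 (adjusted p = 0.476), and the highest value was that of Ndufa4l2, 0.32 (-0.25 to 0.89). The complex II core that stood lowest in WT/Floxed mice was close to 0, with Sdha at -0.03 (-0.19 to 0.12) and Sdhb at 0.03 (-0.31 to 0.37). Sdhb ranged from 8654 to 14100 on saline, which covers all 4 LNA29 values.

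A test of the difference between the LNA29 responses of the 2 tables called no member by limma, as it called 0% of 15601 genes, and 0 members had an unadjusted p under 0.05, against 9.14% of all genes. The lowest p belonged to Ndufaf5, with a difference of 0.29 (-0.05 to 0.64, adjusted p = 0.616), Ndufa3, with -0.30 (-0.67 to 0.07, adjusted p = 0.640), and Cox7a2l, with -0.24 (-0.55 to 0.06, adjusted p = 0.645). The intervals are wide enough to hold no difference and, for these 3, a difference of 0.5 log2 units. By limma the regulators gave 0 calls in the mice labelled L-Sirt1 KO, with Esrra at -0.33 (adjusted p = 0.385) and Pprc1, a relative of PGC-1α, at -0.60 (adjusted p = 0.441), both with an unadjusted p under 0.05. Cs was at -0.23 (adjusted p = 0.471), and the mitochondrially encoded subunits had a median of -0.11 with 10 of 13 lower.

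In rats, the comparison of ZFR with ZLR asks how these genes stand in obesity. No member was called by limma at an adjusted p under 0.05 among 76, where 4.25% of 8633 genes were called. At an adjusted p under 0.2 there were 4 members, 3 lower and 1 higher, against 10.9% of all genes. At an unadjusted p under 0.05 there were 4 lower and 1 higher, against 8.17% and 8.39%. The median was -0.07 against 0.07 over all genes, and 50 of 76 were lower. The bounds were wider than in mice, with 34 of 76 intervals within 0.5 log2 units of 0. The count of calls depended on how the shallow libraries were weighted. With sample quality weights 5 members were called, and with precision weights from the estimated depth 8 were: Ndufa4, Atp5g1, Ndufaf4, Ndufb11, Ndufa6, Ndufc2, Cox4i1 and Ndufaf3. Of these, Atp5g1, Ndufaf4 and Ndufaf3 were higher in ZFR in the main fit and the others lower. The share of all genes called with these weights is not given here, so the counts are not read as a result about the members.

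Ndufa6, an accessory subunit of complex I that carries a LYR motif, was at 290.2, 222.1, 474 and 292.4 normalised counts in ZLR and at 192.5, 174.1, 160.9 and 216.2 in ZFR. Every ZFR value was below every ZLR value, although the highest ZLR value stood apart and came from a library of 188000 reads. The log2 fold change was -0.73 (-1.21 to -0.25, adjusted p = 0.101 by limma). Without the 3 libraries under 1000000 reads it was -0.39 (adjusted p = 0.240). Cox4i1 was at 955.8, 806.6, 800.6 and 845.8 in ZLR and at 700.9, 674.2, 701.9 and 704.6 in ZFR, again without overlap and with a tight ZFR group. Its log2 fold change was -0.29 (-0.49 to -0.09, adjusted p = 0.115 by limma), and -0.34 without those libraries (adjusted p = 0.185). Atp5h, which encodes subunit d of the ATP synthase stalk, was at 464.9, 381.8, 474 and 334.2 in ZLR and at 359, 285.9, 277.9 and 326.7 in ZFR, with an overlap (-0.40, -0.72 to -0.08, adjusted p = 0.191).

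None of the 5 tested assembly factors of complex I was called by limma, and 1 had an unadjusted p under 0.05. The log2 fold changes of the 5 were above 0, with a median of 0.50, and no test set them against the structural subunits. Ndufaf4 was at 23.91, 30.49, 21.07 and 41.77 in ZLR and at 43.54, 47.07, 60.58 and 52.89 in ZFR, with no overlap (0.82, 0.26 to 1.37, adjusted p = 0.115 by limma). The values of ZLR replicates 3 and 4 correspond to only a few reads each, as they do for the other Ndufaf genes. Without the libraries under 1000000 reads the value was 0.80 with an adjusted p of 0.0497 by limma, which passes the threshold. That fit set only ZLR replicates 1 and 2, at 56400000 and 46100000 reads, against ZFR replicates 1, 2 and 4. These ZFR libraries held 58500000, 1560000 and 1240000 reads, and replicate 4 came from a different flow cell than the others. Leaving out ZLR replicate 4 alone gave 1.00 with an adjusted p of 0.0289. Ndufaf7 was at 11.95, 13.08, 0 and 20.88 in ZLR and at 16.8, 21.18, 18.8 and 17.11 in ZFR, where the 0 comes from the library of 188000 reads, so no fold is given for it. Of 30 further assembly factors, 22 were higher, 0 were called by limma and 2 had an unadjusted p under 0.05, with Acad9, which builds complex I, at 0.93 (adjusted p = 0.171).

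Among the core subunits the log2 fold changes in ZFR were 0.31 for Ndufs1 (-0.18 to 0.80), -0.11 for Ndufv1 (-0.42 to 0.21), -0.01 for Sdha (-0.26 to 0.24), -0.05 for Sdhb (-0.41 to 0.30), 0.34 for Uqcrfs1 (-0.07 to 0.75), -0.07 for Uqcrc1 (-0.35 to 0.21), -0.13 for Cox5a (-0.41 to 0.14) and -0.11 for Atp5b (-0.27 to 0.06). None passed the test. By complex, the medians were -0.12 for complex I, 0.02 for complex II, -0.07 for complex III, -0.13 for complex IV and -0.03 for complex V. The mitochondrially encoded subunits had a median of 0.00, with 3 higher and 2 lower at an unadjusted p under 0.05. Of these, 1 was called, Mt-nd2 of complex I, which fell from 10900 to 7530 normalised counts (-0.53, adjusted p = 0.047 by limma). Mt-nd1 was at -0.35 (adjusted p = 0.192), and the complex IV core subunits Mt-co1, Mt-co2 and Mt-cox3 were at 0.24, 0.29 and 0.31 (adjusted p = 0.264, 0.289 and 0.247). Yy1 was at 72.98 and 41.42 (-0.77, adjusted p = 0.085), and Idh3a of the citric acid cycle at 33.01 and 70.3 (1.16, adjusted p = 0.067). Cytosolic ribosomal proteins had a median of -0.17. Bulk RNA cannot tell fewer hepatocytes from less RNA per hepatocyte, and the hepatocyte markers moved here too, with 4 of 4 lower in ZFR and 2 called, between -0.15 and -0.58.

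**Figure D5:**
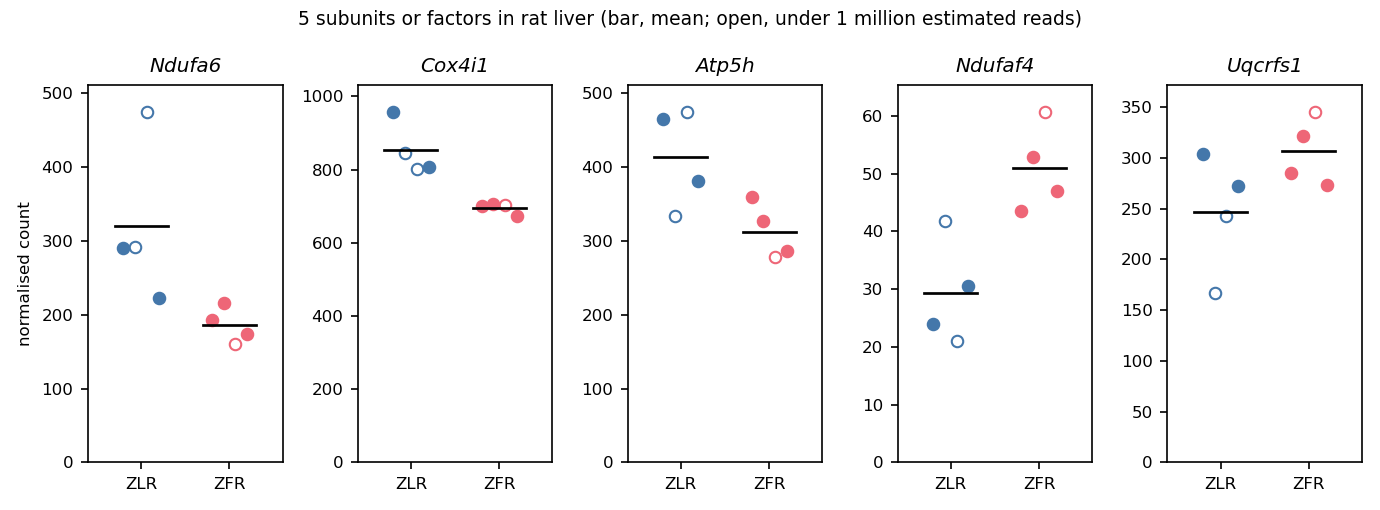
Normalised counts of 5 members in each of 4 ZLR and 4 ZFR livers, with bars at group means and open circles for libraries under 1000000 estimated reads. Ndufa6, Cox4i1 and Ndufaf4 do not overlap between the groups, and Atp5h and Uqcrfs1 do.

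BT2 in ZFR gave no called member by limma among 77, as 0% of 8405 genes were called, and none at an adjusted p under 0.2, where 0.0119% of all genes lay. At an unadjusted p under 0.05 there were 0 members lower and 1 higher, against 2% and 1.95% of all genes. The median was 0.01 over the members and 0.01 over all genes, 36 of 77 were lower, and 42 intervals lay within 0.5 log2 units of 0. Cox7a2l was the member with an unadjusted p under 0.05. It was at 99.91, 109.9, 100.8 and 72.27 on vehicle and at 135.2, 109.5, 137.9 and 125.1 on BT2, with the groups just overlapping (0.41, 0.02 to 0.80, adjusted p = 0.898 by limma).

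Sdhb was at 295.5, 308.9, 310.8 and 320.1 on vehicle and at 220.6, 267, 297.2 and 244.7 on BT2, so 1 BT2 value lay inside the narrow vehicle range (-0.27, -0.56 to 0.02, adjusted p = 0.898 by limma). All 4 complex II genes were lower, with a median of -0.13 and Sdha at -0.01. Ndufc2, an accessory subunit of complex I, was at 0.33 (-0.09 to 0.75), and the assembly factor Ndufaf7 at 1.41 with an interval from -0.53 to 3.35, where vehicle replicate 4 was listed at 0 in a library of 193000 reads, and at 0.39 without that library. Ndufa6, Cox4i1 and Ndufaf4, which stood out between ZFR and ZLR, were at -0.14 (-0.71 to 0.43), 0.12 (-0.16 to 0.40) and 0.00 (-0.79 to 0.79) on BT2. None of 10 regulators was called by limma, with 1 at an unadjusted p under 0.05, Esrra. It was at 46.43, 45.43, 72.5 and 126.6 on vehicle and at 44.08, 43.24, 32.84 and 38.11 on BT2 (adjusted p = 0.898), and the highest vehicle value came from the library of 193000 reads. The mean over the members was 7.39, 7.39, 7.77 and 7.46 in the BT2 livers and 7.45 to 7.51 in the vehicle livers. In the BT2 liver that stood apart, replicate 3, 70 of 77 members were above their median and the ribosomal protein mean was 8.52 against 7.64 to 8.13 in the other 7 livers.

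Several members could not be followed in rats. Cox6b1, Ndufv3 and Uqcrb each appear as 2 entries of the same name, so these 6 entries were left out. Ndufs6 and Ndufa13, subunits that complex I needs in every cell, were listed at means of 0.565 and 1.065 normalised counts in the table of ZFR and ZLR, so their level in the rat tables says nothing about the tissue. The forms known from other tissues, Cox4i2, Cox6a2, Cox6b2, Cox7a1, Cox7b2, Cox8b and Cox8c were below 2 normalised counts in the same table, as was Ndufa4l2. In mice, the processed pseudogenes Cox6c2, Ndufb4c, Ndufs6b, Uqcrh-ps1 and Atp5k-ps2 may share reads with other members. Leaving them out gave a median LNA29 log2 fold change of -0.05 in the WT/Floxed table and -0.10 in the table labelled L-Sirt1 KO.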

How the data were processed

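Liver RNA from 21 mice and 16 rats had been sequenced from polyadenylated libraries. The authors aligned the reads with STAR (mm10 for mouse, rn6 for rat), estimated counts per gene with Salmon and divided them by DESeq2 factors, so the deposited values are a normalised signal per gene and not raw counts, scaled separately in each of 4 tables. The strand setting of the counting was not given in the sources used here. The authors left out a floxed saline mouse as an outlier. Because only normalised values were used, depth was estimated from the value of 1 read in each library. All p-values measure the spread between libraries, 1 per animal, which in the shallow rat libraries also holds read-count noise.

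Entries with a mean of at least 10 were kept, log2(normalised count + 1) was taken, and each table was fitted with limma 3.58.1 in R 4.3.3 (empirical Bayes with a mean trend, two-sided), with Benjamini-Hochberg adjustment over all genes tested and a threshold of 0.05. Fold changes are on that scale and understate those of low genes. The difference of the mouse responses was fitted over both mouse tables. The procedure was tested on simulated data: of 100 genes changed by 1 log2 unit, 76 were recovered in the simulated WT/Floxed comparison (15811 genes), 77 in that labelled L-Sirt1 KO (15885 genes), 26 in that of ZFR and ZLR (8633 genes) and 32 in that of BT2 (8405 genes). Besides read-count noise, the simulated spread was set below the observed SD and drawn separately for each gene. It held no level shared within a library, so recovery may be lower for the members.

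The text names, per comparison, called members or the 3 with the lowest p in each direction, the highest and lowest member of each complex, tissue paralogs and a set of core subunits; other members named were chosen after their values were seen. The members and lists were chosen with earlier results of these data known. Alternatives were other pseudocounts, minimum means, scaling factors, weights, covariates, a replicate block and leaving out each library. The 3′ UTRs came from the principal transcript in GENCODE vM21. Transcript lengths were the median over each gene's protein-coding transcripts there. MicroRNA and promoter sequences came from RefSeq (GRCm38.p6). Levels of members that overlap another gene may include its reads.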

Additional observations from a re-analysis of the deposited data

Results flagged for a closer look

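In 56 tests of 1 library against the rest of its group (Dixon's criterion), 3 values of named members stood apart, and chance gives about 1 in 20. Ndufa10 was at 6682 normalised counts in saline replicate 3 of the WT/Floxed table against 8005 to 8356 in the other 4, a gap of 0.808 of the group's range. Cox4i1 was at 674.2 in ZFR replicate 2 against 700.9 to 704.6 in the other 3, a gap of 0.879. Ndufaf7 was listed at 0 in vehicle replicate 4, a library of 193000 reads, against 15.23 to 17.24 in the other 3, a gap of 0.96. The causes were not tested.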

How the results depend on the processing

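No member was called in the WT/Floxed, L-Sirt1 KO labelled or BT2 comparisons under any alternative run at the 0.05 threshold, and at an adjusted p under 0.2 the WT/Floxed comparison gave 1 and that of ZFR with ZLR 4. For ZFR against ZLR no member was called in the main fit. A minimum mean of 50 gave 1 call (Ndufa6), sample quality weights gave 5 and precision weights from the estimated depth gave 8. The shares of all genes called under these and the next alternatives are not given here, so the counts are not read as a result about the members. Leaving out libraries under 1000000 estimated reads, with only ZLR replicates 1 and 2 left of the lean rats, gave 1 (Ndufaf4). Leaving out each library in turn gave 0 to 1 calls there (Ndufaf4, without ZLR replicate 4). The median over the members then ranged from -0.1271 to 0.02437 in WT/Floxed mice, from -0.1733 to -0.02775 in those labelled L-Sirt1 KO, from -0.1108 to 0.001591 in ZFR against ZLR and from -0.05889 to 0.06273 on BT2. The replicate numbers did not pair the samples, since the correlations of deviations ran from -0.281 to 0.241, and a replicate block called 0 members in each comparison, with medians of -0.003393, -0.09621, -0.0672 and 0.008154. Of the named members' values, 501 kept direction and side of the threshold, 27 changed sign and 9 passed the threshold only under the alternative.

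The log2 fold changes that changed sign were the following, and the cause was not tested. In WT/Floxed mice, Ndufv1 was at 0.002139 with TMM factors, 0.02897 with quality weights, 0.01456 with flow cell as a covariate, 0.01733 under the replicate block and 0.03722 in WT mice only. Under the block Cox6b2 was at -0.085 and Cox5a at 0.01285. In WT mice only Cox5a was at 0.0391 and Uqcrfs1 at 0.002562, and in floxed mice only Ndufs4 was at -0.04537, Ndufb2 at -0.1669 and Cox4i1 at -0.0793. With line as a covariate Cox4i1 was at -0.02785. With quality weights in mice labelled L-Sirt1 KO, Uqcrc1 was at 0.006784, Cox5a at 0.01288 and Atp5g1 at 0.02421. For ZFR against ZLR, Sdha was at 0.0009009 with TMM factors, Uqcrc1 at 0.0009369 with quality weights, and Sdhb at 0.1915 with quality weights, 0.1101 with precision weights and 0.05431 without the shallow libraries. On BT2, Atp5g1 was at 0.03432 with precision weights and, without the shallow libraries, at 0.1141, with Ndufaf7 at -0.1138, Ndufv1 at 0.04553, Sdha at 0.01461 and Uqcrfs1 at 0.04428.

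Leaving out each library in turn moved these members across 0. In WT/Floxed mice Cox4i1 ranged from -0.05935 to 0.07592, Ndufv1 from -0.07339 to 0.05575, Ndufb2 from -0.01382 to 0.1773, Uqcrfs1 from -0.08958 to 0.02176 and Cox5a from -0.1135 to 0.03374. In mice labelled L-Sirt1 KO, Cox5a ranged from -0.1234 to 0.03834, Atp5g1 from -0.1569 to 0.02408, Uqcrb from -0.02366 to 0.1298 and Sdhb from -0.07857 to 0.1563. In ZFR against ZLR, Sdha ranged from -0.08103 to 0.03244 and Sdhb from -0.1787 to 0.06904. On BT2, Uqcrfs1 ranged from -0.08417 to 0.06543, Sdha from -0.02744 to 0.01518 and Atp5g1 from -0.2095 to 0.09566. Depth limits the rat values, where 1 read is worth 10.53 normalised counts in the shallowest library.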
